A study of Homo sapiens with 15 samples.

Results

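The 9 genes described here are regulators and markers of the luminal epithelial state of breast cancer cells: the transcription factors GATA3, ESR1 (oestrogen receptor alpha), FOXA1 and XBP1, the oestrogen-regulated genes PGR, GREB1, TFF1 and TFF3, and the breast differentiation antigen gene ANKRD30A. They were chosen by symbol with earlier results of these data known, and each had 1 probe set. Their share of calls beside that of all genes is therefore a description. All 9 were among the 12147 genes tested. Total RNA was measured on 15 arrays, 3 biological replicates for each of 5 groups: parental BT474, a human breast cancer line with amplified HER2 that was sensitive to trastuzumab emtansine (T-DM1, a HER2 antibody carrying a microtubule poison), and 4 clones of it that resist the drug (C#1, C#2, C#3, C#6). Each clone was grown from a single cell after long T-DM1 exposure and passed 3 months in medium with 5 nM T-DM1. The labels do not state if T-DM1 was still there when RNA was taken. Each group is 1 line or 1 clone, and no unselected clone was among the samples, so resistance, single-cell cloning, drug culture and array handling cannot be told apart in any difference from the parental line. The labels call the replicates biological without saying whether they were separate cultures, and p-values measure the spread between them only.

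In luminal breast epithelium, GATA3 and FOXA1 open chromatin at sites where the oestrogen receptor binds, and GATA3 and ESR1 are known to activate one another. The receptor, once bound by oestrogen, induces PGR, GREB1 and TFF1, which are classical readouts of its activity. XBP1 drives the secretory arm of the unfolded protein response and is itself raised by oestrogen in breast cancer cells. TFF1 and TFF3 are small secreted mucosal peptides.

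The arrays carried most of the luminal epithelial markers that could be read. Of 11 luminal markers, 8 had a symbol here, and 6 of these (KRT18, KRT19, EPCAM, CLDN3, CLDN7 and SPDEF) lay above the upper quartile of their own array on all 15 arrays. The other two, KRT8 and CLDN4, did so on 5 and 11 arrays. Of the basal keratins, KRT5 was below the 40th percentile of every array, whereas KRT14 lay above it on all 15 and above the upper quartile on none. Of the mesenchymal markers VIM lay above the upper quartile on 14 arrays, and ZEB1, ZEB2, TWIST1 and FN1 on none. Of the stromal, endothelial and leukocyte markers, PECAM1, VWF and LYZ could be read, and lay above it on none. The mean of the measured luminal markers lay between 8.95 and 9.48 on the log2 scale over all arrays, and that of the parental arrays between 9.26 and 9.34. The mean of the measured mesenchymal markers was 4.76 to 4.80 on the parental and 4.29 to 4.62 on the clone arrays, and the part of this shift in the results below was not tested. Values are log2 expression after RMA, a summary that makes the arrays' distributions alike and compresses changes near background. Over the arrays, the 40th percentile lay between 3.56 and 3.62, the median between 4.03 and 4.10 and the upper quartile between 5.80 and 5.96. Levels are compared within a gene only, since probe sets differ in brightness.

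RefSeq promoter windows (assembly GRCh38.p14, 250 bases before to 50 after an annotated start) were at hand for 5 of the 9 genes, GATA3, ESR1, PGR, FOXA1 and XBP1, 18 windows in all. They were searched on both strands for 4 kinds of motif. The GATA motif (AGATAA and its variant AGATAG, and both with T as the first base) was in 25.0% of all 35116 windows and in 2 of the 18. The forkhead motif of FOXA1 (TGTTTAC, or its variant TGTTTGC) was in 7.17% of all windows and in 2 of the 18. The full oestrogen response element (GGTCA, then any 3 bases, then TGACC) was in 0.057% of all windows and the XBP1 element (TGACGTG) in 1.97%, and neither was in the 18. The stretches before the start are shown for the 4 genes with a match, since GATA3 and ESR1 were lower in all 4 clones and PGR in 3, and FOXA1 was called in none; capitals mark a GATA or forkhead match on either strand. GATA3 had 6 windows, ESR1 6, PGR 3 and FOXA1 1, and only the window with a match is shown for each. The other windows of these genes held no match. The GATA3 window shown is the most upstream of its 6. Which annotated start these cells use was not tested. The window shown is on chromosome 10 for GATA3 (chr10:8045083-8045332, plus strand), on chromosome 6 for ESR1 (chr6:151806946-151807195, plus strand), on chromosome 11 for PGR (chr11:101129814-101130063, minus strand) and on chromosome 14 for FOXA1 (chr14:37595250-37595499, minus strand).
GATA3: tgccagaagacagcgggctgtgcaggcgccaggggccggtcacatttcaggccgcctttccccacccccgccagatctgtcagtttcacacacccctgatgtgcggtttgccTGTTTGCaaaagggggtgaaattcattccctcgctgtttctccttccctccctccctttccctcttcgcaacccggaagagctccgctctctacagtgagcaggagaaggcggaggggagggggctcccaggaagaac
ESR1: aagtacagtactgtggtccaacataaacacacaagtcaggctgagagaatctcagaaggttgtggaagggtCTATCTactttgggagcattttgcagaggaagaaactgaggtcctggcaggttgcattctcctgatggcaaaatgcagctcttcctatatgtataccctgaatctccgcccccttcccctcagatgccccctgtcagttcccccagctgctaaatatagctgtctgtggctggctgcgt
PGR: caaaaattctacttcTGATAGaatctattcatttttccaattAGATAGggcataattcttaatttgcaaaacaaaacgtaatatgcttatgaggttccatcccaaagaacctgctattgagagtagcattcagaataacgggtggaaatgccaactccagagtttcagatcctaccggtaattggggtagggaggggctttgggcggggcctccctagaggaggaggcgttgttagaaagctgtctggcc
FOXA1: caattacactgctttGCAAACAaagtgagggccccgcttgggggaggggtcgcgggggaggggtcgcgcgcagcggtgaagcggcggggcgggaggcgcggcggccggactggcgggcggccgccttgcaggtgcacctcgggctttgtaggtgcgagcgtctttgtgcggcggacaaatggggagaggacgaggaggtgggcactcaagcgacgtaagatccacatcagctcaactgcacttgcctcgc
The GATA3 window held 1 forkhead match, TGTTTGC on the gene's strand, at bases -138 to -132 from the start. The ESR1 window held a GATA match, AGATAG on the other strand, at -179 to -174, and 2 more after the start. The PGR window held the GATA matches TGATAG at -235 to -230 and AGATAG at -208 to -203. The FOXA1 window held TGTTTGC on the other strand at -235 to -229. A match of letters is a description of the sequence and not a measured binding site.

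Against the parental line, GATA3 and ESR1 were lower and TFF1 and TFF3 higher in all 4 clones. PGR fell in C#1, C#2 and C#3, XBP1 in C#3 and ANKRD30A in C#6, whereas FOXA1 and GREB1 passed the test in no clone. A gene was called at a limma adjusted p below 0.05, with Benjamini-Hochberg adjustment over all 12147 genes. In C#1, 5 of the 9 genes were called, 2 higher and 3 lower, where 17.2% of all genes tested were called (6.03% higher and 11.2% lower). In C#2, 5 were called, 2 higher and 3 lower, against 16.9% of all genes (5.47% higher and 11.5% lower). In C#3, 6 were called, 2 higher and 4 lower, against 17.2% (6.22% higher and 11% lower). In C#6, 5 were called, 2 higher and 3 lower, against 22.4% (7.73% higher and 14.7% lower). Over all genes, 3.65% were lower and 1.04% higher in all 4 clones. The median log2 change of the 9 genes was -0.14 in C#1, -0.04 in C#2, -0.38 in C#3 and -0.41 in C#6, where the median over all genes lay between -0.02 and -0.0018. The 4 comparisons share the same 3 parental arrays. Between C#1 and C#2, 0% of all genes were called. These 2 clones may therefore not be independent of one another, which was not tested. Of all genes called, 65.0%, 67.7%, 63.8% and 65.5% were lower in the clones, in the order of their numbers, against 52.1%, 52.2%, 50.3% and 49.7% when the arrays were quantile normalized anew, a step that reversed no call of the 9 genes.

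**Figure D1:**
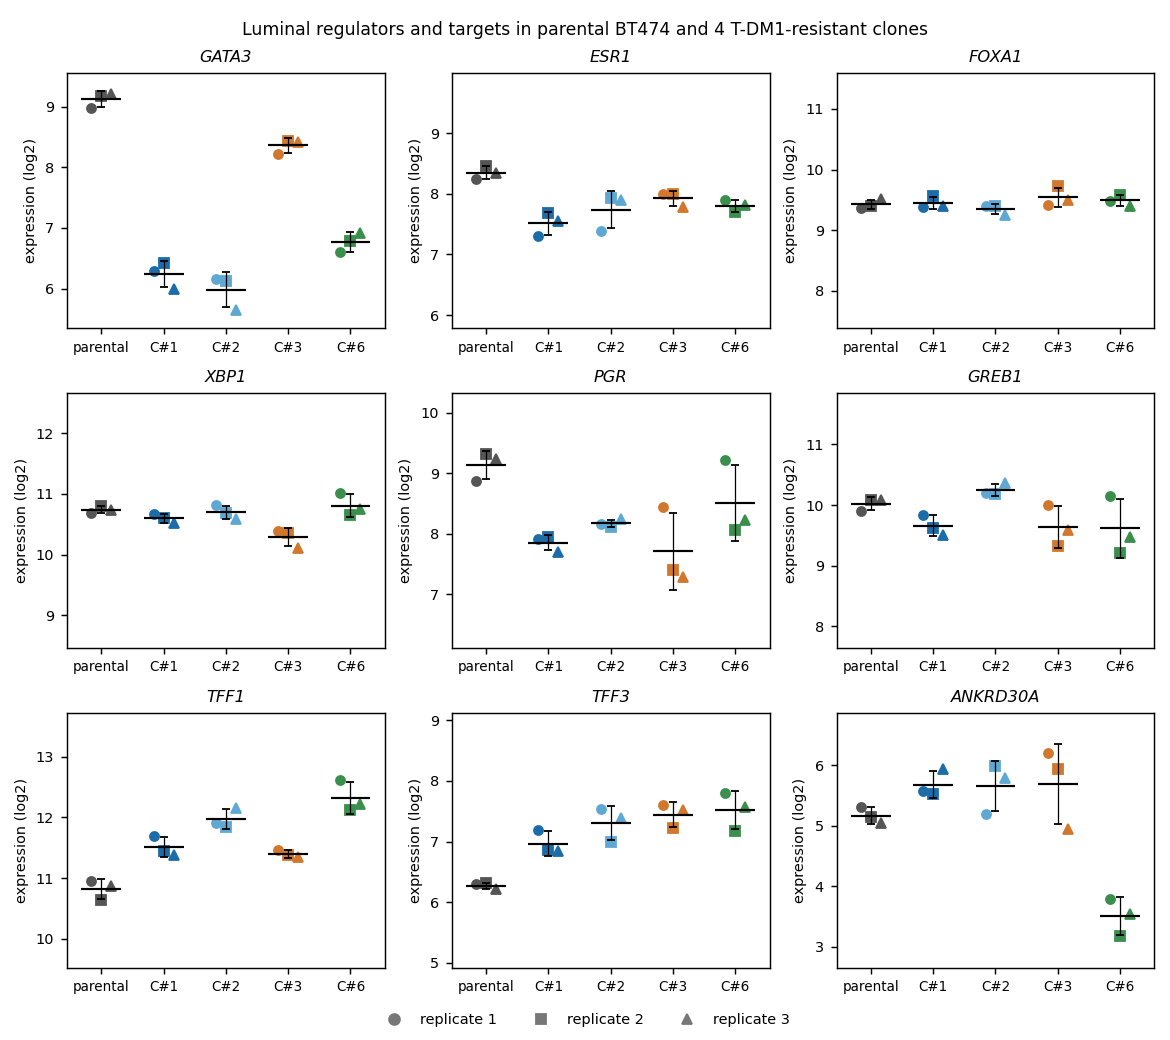
Expression of the 9 genes on each array (log2, vertical axis; every panel spans the same range of log2 units) in parental BT474 and the 4 clones (horizontal axis); symbols are single arrays by replicate number, horizontal bars group means and vertical bars 1 SD (n = 3). GATA3 is below the parental arrays on all 12 clone arrays and lowest in C#1 and C#2, and TFF1 and TFF3 are above the parental arrays on all 12.

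GATA3, a zinc finger factor that specifies and maintains luminal cells, had the widest change of the 9 genes in C#1, C#2 and C#6. The 3 parental arrays read 8.98, 9.17 and 9.22 on the log2 scale. C#1 read 6.29, 6.42 and 6.00, and C#2 read 6.16, 6.13 and 5.65. C#6 read 6.60, 6.78 and 6.92. C#3 read 8.22, 8.44 and 8.42. All 12 clone arrays lay below the lowest parental array, and those of C#3 were nearest to it. GATA3 fell by 2.89 in C#1 (SE 0.15, limma adjusted p 3.03e-09), which is 7.41-fold. It fell by 3.14 in C#2 (adjusted p 1.22e-09 in limma), or 8.83-fold. The fall was 5.12-fold in C#6 (log2 -2.36, limma adjusted p 1.96e-08) and 1.70-fold in C#3 (log2 -0.76, limma adjusted p 0.00183). Ranked among the falls of all 12147 genes, GATA3 was number 2 in C#1, 2 in C#2, 11 in C#6 and 295 in C#3.

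The order of the GATA3 level was C#2 (mean 5.98), C#1 (6.23), C#6 (6.77), C#3 (8.36) and parental (9.12). C#1 and C#2 did not differ beyond their spread (log2 difference 0.25, limma adjusted p 0.821). C#3 stood above each other clone, with a log2 difference of -2.13 for C#1 minus C#3 (limma adjusted p 1.34e-07), -2.38 for C#2 minus C#3 (2.66e-08) and 1.59 for C#3 minus C#6 (3.96e-06). C#6 was 0.79 above C#2 (limma adjusted p 0.00191). It was 0.53 above C#1 (limma adjusted p 0.023), a difference no longer called without C#1 replicate 3 (0.42), C#6 replicate 2 (0.53, limma adjusted p 0.0679) or C#6 replicate 3 (0.46).

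ESR1, the nuclear receptor for oestrogen, was lower in every clone by a smaller and more even amount. Its parental values were 8.24, 8.47 and 8.35. C#1 read 7.31, 7.68 and 7.56, and C#2 read 7.39, 7.92 and 7.90. C#3 read 7.99, 7.99 and 7.78, and C#6 read 7.89, 7.70 and 7.81. Every clone array lay below the lowest parental array, while the arrays of C#2 overlapped with those of every other clone. ESR1 fell by 0.84 in C#1 (SE 0.14, limma adjusted p 0.000668), by 0.61 in C#2 (0.00613) and by 0.55 in C#6 (0.00896). In C#3 it fell by 0.43 (limma adjusted p 0.0443). The C#3 call was lost on leaving out any 1 of 8 arrays: each parental array, each C#3 array, C#1 replicate 3 or C#6 replicate 3, with changes from -0.48 to -0.36. It was also lost when the arrays were quantile normalized anew (-0.36, limma adjusted p 0.0801). No pair of clones differed in ESR1 by the test. The widest gap, C#1 minus C#3, was -0.41 (limma adjusted p 0.0558), close to the threshold: it was called without C#1 replicate 2 (-0.49) or C#2 replicate 1 (-0.41) and in 4 other settings, with the limma adjusted p over them from 0.0201 to 0.0474. C#3, the clone with the smallest fall in GATA3, also had the smallest fall in ESR1, and the rank of the ESR1 fall among all genes ran from 184 in C#1 to 1130 in C#3.

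FOXA1, the forkhead factor that opens chromatin for the oestrogen receptor, did not differ from the parental line beyond the spread of the arrays in any clone. In the parental line the arrays read 9.37, 9.40 and 9.51. C#1 read 9.38, 9.57 and 9.41, and C#2 read 9.41, 9.40 and 9.25. C#3 read 9.41, 9.72 and 9.49, and C#6 read 9.48, 9.58 and 9.41. Each clone overlapped with the parental arrays. The log2 changes were 0.03 in C#1, -0.07 in C#2, 0.12 in C#3 and 0.07 in C#6 (SE 0.10, limma adjusted p 0.494 to 0.901). The 95% intervals ran from -0.29 at the lowest, in C#2, to 0.34 at the highest, in C#3, so changes within that range cannot be told from none.

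XBP1, the secretory and unfolded protein response factor, was lower in C#3. On the parental arrays it read 10.69, 10.80 and 10.73, and C#3 read 10.39, 10.36 and 10.11, below all of them. C#1 read 10.67, 10.60 and 10.53, and C#2 read 10.81, 10.68 and 10.59. C#6 read 11.02, 10.65 and 10.74. C#2 and C#6 overlapped with the parental arrays, and C#1 lay just under them. XBP1 fell by 0.45 in C#3 (SE 0.11, limma adjusted p 0.0115). That call was lost without parental replicate 2 (-0.42, limma adjusted p 0.0507) or C#3 replicate 3 (-0.36, limma adjusted p 0.06). The changes in C#1, C#2 and C#6 were -0.14, -0.04 and 0.06 (limma adjusted p 0.47, 0.846 and 0.739). C#3 was 0.51 below C#6 (limma adjusted p 0.00787) and 0.41 below C#2 (0.0206), the latter lost without C#2 replicate 1 (0.35) or C#3 replicate 3 (0.32).

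PGR, the progesterone receptor, fell in 3 clones. The parental arrays read 8.87, 9.31 and 9.23. C#1 read 7.92, 7.94 and 7.71, and C#2 read 8.17, 8.11 and 8.24. C#3 read 8.44, 7.40 and 7.28. C#6 read 9.23, 8.07 and 8.22. Replicate 1 of C#3 and of C#6 stood about 1 log2 unit above its partners, and in C#6 it reached the parental range. PGR fell by 1.28 in C#1 (SE 0.28, limma adjusted p 0.00461), by 0.97 in C#2 (0.0248) and by 1.43 in C#3 (0.0022). In C#6 the change was -0.63 (limma adjusted p 0.121). The C#2 call was lost without parental replicate 2 (-0.88), parental replicate 3 (-0.92), C#2 replicate 1 (-0.96) or C#2 replicate 2 (-0.94). C#6 was called without its own replicate 1 (-0.99, limma adjusted p 0.0105) or without C#3 replicate 1 (-0.63, limma adjusted p 0.0492). Each call left out an array that stood above its partners, so a smaller error follows from the choice. Neither call supports a fall in C#6. The change in C#6 was -0.42 without its replicate 2 (limma adjusted p 0.39).

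GREB1, an oestrogen-induced coactivator of the receptor, passed the test in no clone. Parental values were 9.89, 10.08 and 10.09. C#1 read 9.84, 9.63 and 9.50, just below them, and C#2 read 10.20, 10.18 and 10.36, just above. C#3 read 10.00, 9.32 and 9.59, and C#6 read 10.15, 9.21 and 9.48. As for PGR, replicate 1 was the highest array of both C#3 and C#6 and overlapped with the parental values. The changes were -0.37 in C#1, 0.22 in C#2, -0.38 in C#3 and -0.41 in C#6 (SE 0.20, limma adjusted p 0.231, 0.486, 0.206 and 0.157). Single arrays moved these values widely. The change in C#6 was -0.67 and called without C#6 replicate 1 (limma adjusted p 0.0102), and -0.21 without C#6 replicate 2 (limma adjusted p 0.53). That in C#3 was -0.57 without C#3 replicate 1 and -0.23 without C#3 replicate 2, neither called. Replicate 1 of C#6 was its highest array, so a lower level follows from leaving it out and that call supports no fall. C#2 lay above C#3 by 0.61 (limma adjusted p 0.0454) and above C#6 by 0.63 (0.0486), and neither call was firm. The first was lost without any 1 of 10 arrays (all parental, all C#2, C#1 replicate 2, C#3 replicates 2 and 3, C#6 replicate 3), at 0.45 to 0.64. The other was lost without any 1 of 11 arrays (all parental, all C#2, C#1 replicates 2 and 3, C#3 replicate 3, C#6 replicates 2 and 3), at 0.43 to 0.66.

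TFF1, a secreted trefoil peptide and a classical oestrogen-induced gene, rose in every clone. The parental arrays read 10.95, 10.63 and 10.86. C#1 read 11.70, 11.44 and 11.39, and C#2 read 11.91, 11.85 and 12.15. C#3 read 11.47, 11.38 and 11.34. C#6 read 12.62, 12.12 and 12.22. All clone arrays lay above the highest parental array, and those of C#6 were the highest, with 1 array of C#2 among them. TFF1 rose 1.62-fold in C#1 (log2 0.70, SE 0.14, limma adjusted p 0.00214) and 2.23-fold in C#2 (log2 1.16, limma adjusted p 3.42e-05). It rose 1.50-fold in C#3 (log2 0.58, limma adjusted p 0.0075) and 2.84-fold in C#6 (log2 1.51, limma adjusted p 1.25e-06). C#6 exceeded C#1 by 0.81 (limma adjusted p 0.000931) and C#3 by 0.92 (0.000371), and C#2 exceeded C#3 by 0.57 (0.00809).

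TFF3, the trefoil peptide of goblet cells that luminal breast cancers also secrete, rose as well. The parental arrays read 6.30, 6.31 and 6.22. C#1 read 7.20, 6.86 and 6.85, and C#2 read 7.53, 6.99 and 7.40. C#3 read 7.60, 7.22 and 7.52, and C#6 read 7.80, 7.18 and 7.57. No clone array reached down to the parental range, and the clones overlapped with one another except C#1 with C#3, whose arrays lay just above those of C#1. TFF3 rose 1.62-fold in C#1 (log2 0.69, SE 0.17, limma adjusted p 0.00846) and 2.04-fold in C#2 (log2 1.03, limma adjusted p 0.000516). It rose 2.25-fold in C#3 (log2 1.17, limma adjusted p 0.000191) and 2.36-fold in C#6 (log2 1.24, limma adjusted p 5.96e-05). C#6 exceeded C#1 by 0.55 (limma adjusted p 0.0392). That difference was no longer called without any parental array (0.55), C#1 replicate 2 (0.49), C#1 replicate 3 (0.49), C#6 replicate 1 (0.41) or C#6 replicate 3 (0.52). ESR1 was lower, and these secreted peptides were higher, in the same 4 clones.

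ANKRD30A, which encodes the breast differentiation antigen NY-BR-1, was lower in C#6 and in no other clone by the test. The parental arrays read 5.31, 5.14 and 5.04. C#6 read 3.79, 3.17 and 3.55, below every other array. C#1 read 5.57, 5.53 and 5.94, and C#2 read 5.20, 5.99 and 5.79. C#3 read 6.19, 5.93 and 4.94. The arrays of C#1 lay above the parental ones, and those of C#2 and C#3 overlapped with them. ANKRD30A fell 3.16-fold in C#6 (log2 -1.66, SE 0.26, limma adjusted p 0.000272), where it lay above the 40th percentile on 1 of 3 arrays, so the fall is compressed by the background. The changes in C#1, C#2 and C#3 were 0.51, 0.49 and 0.52 (limma adjusted p 0.21, 0.224 and 0.197), and C#3 was called without its replicate 3 (0.90, limma adjusted p 0.0136) but was 0.27 without its replicate 1 (limma adjusted p 0.577). C#6 was below C#1 by 2.17 (limma adjusted p 5.42e-05), below C#2 by 2.15 (5.85e-05) and below C#3 by 2.18 (6.72e-05).

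**Figure D2:**
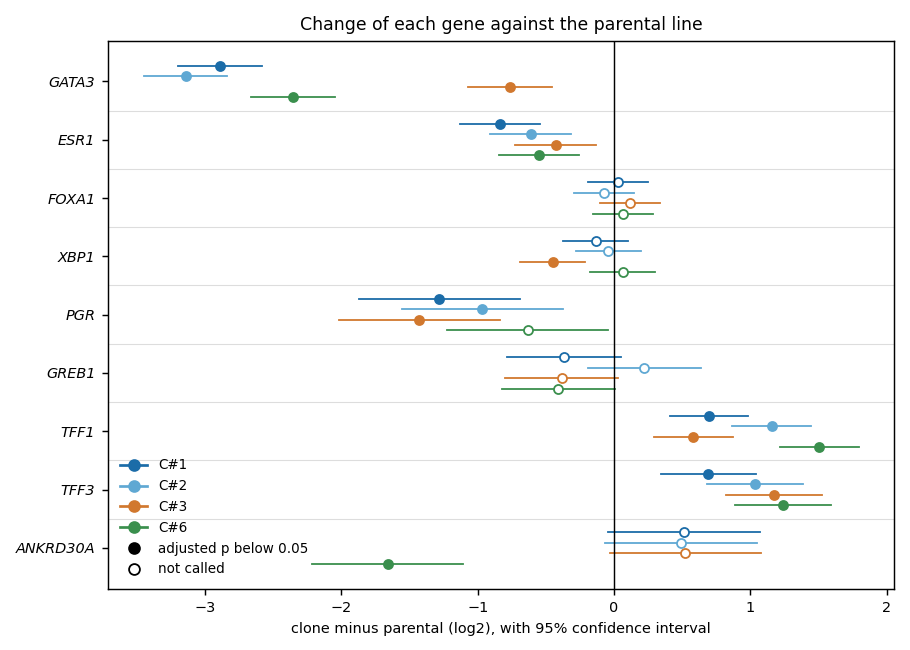
Log2 change of each gene (rows) in each clone against the parental line (horizontal axis, clone minus parental), with 95% confidence intervals from limma; filled points have an adjusted p below 0.05. GATA3 changes range from -3.14 in C#2 to -0.76 in C#3, FOXA1 stays between -0.07 and 0.12, and ANKRD30A is at -1.66 in C#6.

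The 4 clones were also set against one another. By limma's F test among the clones, GATA3 (adjusted p 4.74e-08), ANKRD30A (2.34e-05), TFF1 (0.000314) and XBP1 (0.0138) differed, 4 of 9 genes, where 22.5% of all genes did. ESR1 (limma adjusted p 0.167), PGR (0.148), TFF3 (0.077), GREB1 (0.0582) and FOXA1 (0.52) did not pass it. In pairs, 0 of the 9 genes differed between C#1 and C#2 by limma (2 at an unadjusted p below 0.05), where 0% of all genes were called. Between C#1 and C#3, 1 gene differed (16.8% of all genes), and between C#1 and C#6, 4 did (12.7%). Between C#2 and C#3, 4 differed (15.8%), between C#2 and C#6, 3 did (11.2%), and between C#3 and C#6, 4 did (9.01%). C#3 had the highest GATA3 and the lowest XBP1 of the clones, and C#6 had the highest TFF1 and the lowest ANKRD30A. The share of genes whose arrays did not overlap with the parental ones was 36.6% of all genes in C#1, 36.5% in C#2, 38.9% in C#3 and 40.7% in C#6, and of the 9 genes 8, 6, 6 and 5 did not.

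Replicate 1 of C#3 and of C#6 stood apart for the hormone-regulated genes. It was the highest array of its clone for 7 of the 9 genes in both clones, where 31.7% (C#3) and 36.1% (C#6) of all genes had their highest value there. It exceeded the mean of its partners by 1.10 in C#3 and 1.08 in C#6 for PGR, by 0.54 and 0.80 for GREB1, and by 0.16 and 0.32 for XBP1. GATA3 went the other way in both clones, and FOXA1 was not highest there. Of the 38 tested genes of an oestrogen response list, 24 in C#3 and 25 in C#6 were highest on replicate 1, with a median of 0.20 and 0.19 above the clone's mean. Replicate 1 of C#1 and of C#2 was highest for 21 and 17 of the 38, with smaller medians of 0.06 and 0.06, and that of the parental line for 7. What distinguishes replicate 1 of C#3 and C#6 is not stated in the labels, and its part in the results was not tested.

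The values were recomputed without both arrays, an alternative chosen after seeing the data. For PGR and GREB1, lower levels in C#3 and C#6 and a smaller error follow from that choice, so their values are given with no test and support no call. The PGR change in C#6 was then -0.99, and the GREB1 changes in C#3 and C#6 were -0.57 and -0.67. GATA3 was at -0.70 in C#3 and -2.27 in C#6, and FOXA1 at 0.18 and 0.07. The ESR1 change in C#3 was -0.46 and was not called (limma adjusted p 0.0722). TFF1 and TFF3 stayed higher in all 4 clones, and the TFF3 difference of C#1 minus C#6 was -0.41 and not called (limma adjusted p 0.151).

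**Figure D3:**
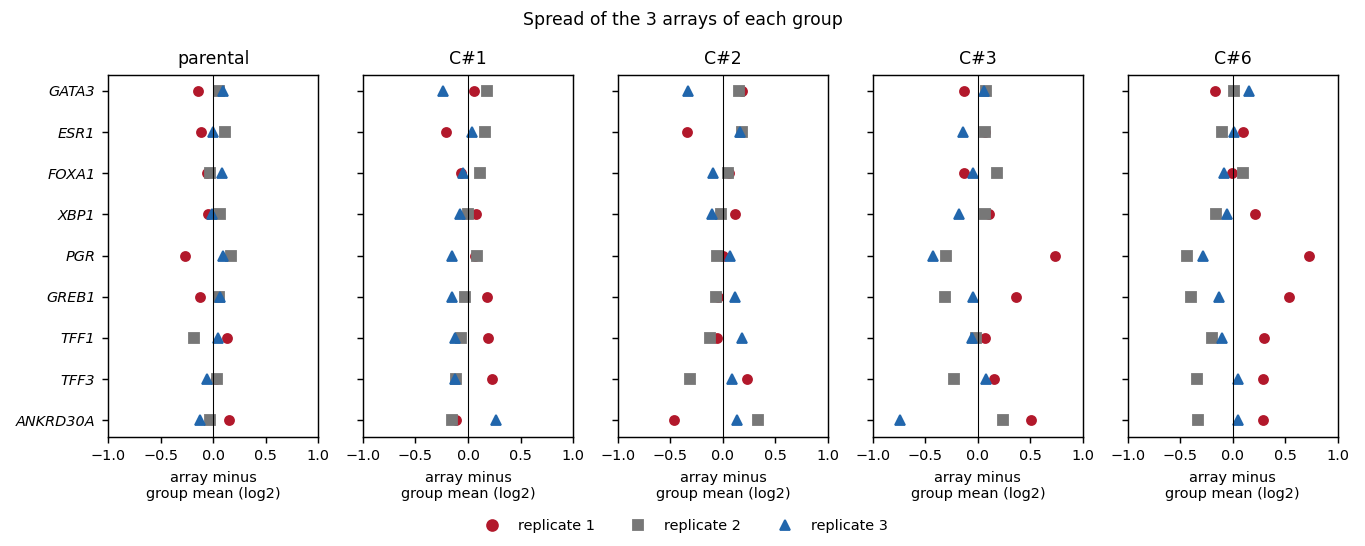
Deviation of each array from the mean of its group (horizontal axis, log2) for the 9 genes (rows), with 1 panel per group and 1 symbol per replicate. Replicate 1 lies to the right for PGR and GREB1 in C#3 and C#6, where it exceeds the mean of its partners by 1.10 and 1.08 for PGR.

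Other genes of the same pathways were read from lists chosen by known function, with earlier results of these data known. The shares of each list beside those of all genes are therefore a description and no independent test. Of 58 oestrogen response genes, 40 had a symbol and 38 were tested. In C#1, 2 were higher and 10 lower, in C#2, 3 and 8, in C#3, 0 and 9, and in C#6, 1 and 12. The lower ones were 26.3%, 21.1%, 23.7% and 31.6% of the 38, beside 11.2%, 11.5%, 11% and 14.7% of all genes. The higher ones were 5.26%, 7.89%, 0% and 2.63%, beside 6.03%, 5.47%, 6.22% and 7.73%. The list medians were -0.27, -0.17, -0.31 and -0.23. NPY1R, a neuropeptide Y receptor and oestrogen target, fell in every clone, with log2 changes of -3.45, -3.43, -3.11 and -3.88 in the order of clone number (SE 0.18, limma adjusted p at most 1.91e-08). IRS1, the insulin receptor substrate, changed by -1.15, -1.09, -1.10 and -1.54 in the same order, which the lists below keep (SE 0.24, limma adjusted p at most 0.00538). GFRA1, a co-receptor for the growth factor GDNF, fell, at -1.75 in C#1, -1.59 in C#2 and -0.65 in C#6 (SE 0.15), and was -0.40 in C#3 (limma adjusted p 0.0711), where leaving out C#3 replicate 1 called it at -0.54. MYC fell, at -1.30 in C#1, -1.74 in C#3 and -1.49 in C#6 (SE 0.31), and was -0.86 in C#2 (limma adjusted p 0.064), a change that was called without parental replicate 3 or C#1 replicate 3 (-1.08 to -0.50 over single arrays left out). TFF1 and TFF3, which are not on this list, rose in clones in which 8 to 12 of its 38 tested genes fell.

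Of 37 luminal transcription factors, 22 were tested. The counts higher and lower were 2 and 5 in C#1, 0 and 6 in C#2, 0 and 8 in C#3, and 2 and 9 in C#6. The lower ones were 22.7%, 27.3%, 36.4% and 40.9% of the list, and the higher ones 9.09%, 0%, 0% and 9.09%, to be read against the same shares of all genes. TRPS1, a GATA-type repressor of luminal cells, fell, by log2 changes of -0.62, -0.67, -0.49 and -0.79 (SE 0.11, limma adjusted p at most 0.00614). ZNF703, a luminal oncogene that acts with the receptor, gave -0.84, -0.99, -1.30 and -1.63 (SE 0.21). Its C#1 call was lost without parental replicate 3 or C#1 replicate 3 (-1.01 to -0.57 over single arrays left out). GRHL3, an epithelial grainyhead factor, gave -0.93, -1.25, -1.21 and -1.05 (SE 0.24). Its C#1 call was lost without parental replicate 3 or C#1 replicate 1 (-1.10 to -0.73). LMO4 fell by 1.44 in C#6, and was -0.39, -0.45 and -0.38 in C#1, C#2 and C#3, calls that 4, 4 and 8 single arrays decided, parental replicates 1 and 2 among them in each clone (-0.56 to -0.30).

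Of 33 luminal surface and structural genes, 20 were tested. The counts higher and lower were 1 and 5 in C#1, 1 and 4 in C#2, 0 and 3 in C#3, and 3 and 7 in C#6. The lower ones were 25%, 20%, 15% and 35% of the list, beside 11.2%, 11.5%, 11% and 14.7% of all genes. In C#3 that share was near the one of all genes. The higher ones were 5%, 5%, 0% and 15%, beside 6.03%, 5.47%, 6.22% and 7.73%. AGR2, a disulfide isomerase of secretory cells, fell, at -1.25 in C#1, -1.17 in C#2 and -0.78 in C#6 (SE 0.14) and was -0.06 in C#3 (limma adjusted p 0.832). ANXA9, an annexin, fell, at -1.49, -1.48 and -1.53 in C#1, C#2 and C#6 (SE 0.23) and was 0.11 in C#3 (limma adjusted p 0.812). PIP, an apocrine secretory protein, fell by 1.15 in C#6 (limma adjusted p 0.000532), and TSPAN1, a tetraspanin, rose there by 0.76 (0.0028). The other clones gave 0.48, -0.12 and -0.34 for PIP and 0.30, 0.34 and 0.16 for TSPAN1, none called.

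Of 32 coregulators of the oestrogen receptor, 22 were tested. The counts higher and lower were 0 and 4 in C#1, 0 and 6 in C#2, 1 and 4 in C#3, and 1 and 7 in C#6. The lower ones were 18.2%, 27.3%, 18.2% and 31.8% of the list, beside 11.2%, 11.5%, 11% and 14.7% of all genes. The higher ones were 0%, 0%, 4.55% and 4.55%, beside 6.03%, 5.47%, 6.22% and 7.73%. CREBBP, a histone acetyltransferase, fell, at -0.51 in C#1 and -0.66 in C#2 (SE 0.12), and NCOA1, the p160 coactivator, fell, at -0.65 in C#1 and -0.72 in C#6 (SE 0.16). NCOA1 was also called in C#2 at -0.61, which was lost without parental replicate 3 or C#2 replicate 1 (-0.65 to -0.53). BCAS3 fell in C#6 (-0.81), and KAT2B, an acetyltransferase, in C#2 (-0.74). Of 11 GATA family members and partners other than GATA3, 9 were tested, with 1 higher and 3 lower in C#1, 2 and 3 in C#2, 0 and 4 in C#3, and 0 and 5 in C#6. With 9 genes, 1 gene is 11.1% of the list. The lower shares were 33.3%, 33.3%, 44.4% and 55.6%, and the higher ones 11.1%, 22.2%, 0% and 0%. They are to be read beside the same shares of all genes. GATAD2B, a subunit of the NuRD repressor complex, fell throughout, at -0.58, -0.68, -0.54 and -0.78 (SE 0.10, limma adjusted p at most 0.00126). GATA5 rose by 0.65 in C#1 and 0.64 in C#2 (SE 0.14). GATA4 fell, at -1.02 in C#3 and -1.04 in C#6 (SE 0.15) and was -0.54 in C#1 and -0.52 in C#2, calls lost without parental replicate 2 or 3 and, in turn, other single arrays (-0.60 to -0.37).

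Of 45 unfolded protein response and secretory genes, 26 were tested. The list also holds EIF2AK3, ATF4 and ATF6, and is not limited to the secretory arm that XBP1 drives. The counts higher and lower were 2 and 3 in C#1, 2 and 2 in C#2, 5 and 2 in C#3, and 5 and 3 in C#6. The higher ones were 7.69%, 7.69%, 19.2% and 19.2% of the list, beside 6.03%, 5.47%, 6.22% and 7.73% of all genes. The lower ones were 11.5%, 7.69%, 7.69% and 11.5%, beside 11.2%, 11.5%, 11% and 14.7%, so in C#1 and C#2 the shares were near those of all genes. EIF2AK3, the stress kinase PERK, rose by 0.80 in C#3 and 0.61 in C#6 (SE 0.11), and DERL2, of the degradation channel of the endoplasmic reticulum, rose by 0.57 and 0.67 there (SE 0.11). MANF, a secreted stress protein, rose by 0.52 in C#1 and 0.59 in C#2 (SE 0.12). CREB3L1, a membrane-bound stress factor, fell by 0.73 in C#3 (SE 0.14, limma adjusted p 0.00179). In C#3, where XBP1 was lower, the list median was 0.05, and in C#6, where XBP1 did not differ from parental by the test, it was 0.22. These medians do not measure the activity of XBP1, which was not tested.

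Markers of other cell states were measured by lists too small for their shares to be set against those of all genes. Of 28 basal and myoepithelial markers, 11 were tested, with 1 higher and 2 lower in C#1, C#2 and C#6 and 0 and 3 in C#3. MME, a membrane peptidase, fell throughout, at -2.17, -2.44, -1.88 and -2.42 (SE 0.18, limma adjusted p at most 4.35e-06). BCL11A, a zinc finger factor, rose by 1.54 in C#1 and 1.39 in C#2 (SE 0.20). Its values were -0.60 in C#3 and 0.62 in C#6, calls that single arrays ended, among them parental replicate 1 in both (-0.76 to -0.51 in C#3 and 0.39 to 0.82 in C#6). ANXA1 fell, at -0.56, -0.66 and -0.64 in C#1, C#2 and C#6 (SE 0.13) and was -0.43 in C#3, a call lost without any C#3 array (-0.46 to -0.40). Of 19 mesenchymal markers, 11 were tested, with 1 higher and 3 lower in C#1, 1 and 2 in C#2, 0 and 4 in C#3, and 1 and 3 in C#6. VIM, the mesenchymal filament vimentin, fell, at -1.10, -1.03 and -1.24 in C#1, C#2 and C#6 (SE 0.14) and was -0.53 in C#3, lost without parental replicate 1 or 2 (-0.67 to -0.44) and at -0.26 with the mean of its probe sets. TWIST1 fell, at -0.67, -1.06 and -1.10 in C#2, C#3 and C#6 (SE 0.15) and was -0.54 in C#1, lost without parental replicate 1 or 3 or C#1 replicate 1 or 3 (-0.67 to -0.42). AXL rose by 0.97 in C#2 (SE 0.11). It was also called higher in C#1 (0.35) and lower in C#3 (-0.38), calls that 5 and 4 single arrays ended. SNAI1 was called lower, at -0.70 in C#1, -0.77 in C#3 and -0.695 in C#6 (SE 0.205, limma adjusted p at most 0.0255). It was -0.41 in C#2 (limma adjusted p 0.188). Of 20 stromal, endothelial and leukocyte markers, 3 were tested and only CD68, a lysosomal protein of macrophages, was called, at 1.54 in C#1, 1.89 in C#2 and 1.30 in C#6 (SE 0.32).

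The genes beside each of the 9 on its chromosome were read to see whether neighbours moved with them. By RefSeq gene order, the 5 tested genes on each side were taken. Counts among each 10 neighbours are to be read beside the shares of all genes. In the order of clone number, 6.03%, 5.47%, 6.22% and 7.73% of all genes were higher. The lower shares were 11.2%, 11.5%, 11% and 14.7%, so 1 or 2 lower among 10 lies near them. Beside GATA3 on chromosome 10, 0 of 10 neighbours were called in C#1 and C#6. MIR3155A was called in C#2 (-0.58) and SFMBT2 in C#3 (0.51), and both were named after their values were seen. The first call was lost without any 1 of 7 arrays (all parental, C#1 replicate 2, C#2 replicates 1 and 3, C#6 replicate 3, -0.73 to -0.36), the latter without parental replicate 2 or 3 or C#3 replicate 2 or 3 (0.39 to 0.66). The neighbours' changes lay between -0.58 and 0.51 where the GATA3 change reached -3.14. The antisense gene next to it, GATA3-AS1, was near background (group means 3.64 to 3.74) and changed by -0.10 to 0.00002, with no call. Beside ESR1 on chromosome 6, 1 neighbour was higher and 3 lower in C#1, 2 and 3 in C#2, 0 and 6 in C#3, and 2 and 3 in C#6. ZBTB2, a zinc finger repressor, fell there, at -1.05, -0.95, -1.07 and -0.91 (SE 0.22, limma adjusted p at most 0.00602). In C#3 the neighbours' median was -0.53, next to an ESR1 change of -0.43, whereas it lay between -0.04 and -0.03 in the other clones. RMND1 (-0.80), MTHFD1L (-0.56) and MTRF1L (-0.54) were called in C#3, and were picked out after their values were seen. The other neighbours called lower in C#3, AKAP12, ZBTB2 and SCAF8, were called lower in every clone. That RMND1, MTHFD1L and MTRF1L lay lower in C#3 than in the other clones follows in part from the choice. Their differences are therefore given with no test. C#1 minus C#3, C#2 minus C#3 and C#3 minus C#6 were 0.78, 1.05 and -0.84 for RMND1. They were 0.46, 0.55 and -0.47 for MTHFD1L, and 0.47, 0.49 and -0.58 for MTRF1L.

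Beside XBP1 on chromosome 22, 0 neighbours were higher and 6 lower in C#3, the clone with lower XBP1, with a median of -0.36. Of these 6, EWSR1 was called lower in every clone (-0.39, -0.55, -0.48 and -0.43). RHBDD3 and ZNRF3 were also called lower in C#1, at -0.52 and -0.37, beside -0.33 and -0.74 in C#3. The counts of neighbours higher and lower were 0 and 3 in C#1, 0 and 1 in C#2, and 1 and 1 in C#6. The medians there were -0.25, -0.17 and -0.16. All counts here are again to be read beside the shares of all genes. Beside PGR on chromosome 11, 1 neighbour was higher and 1 lower in C#1, 0 and 1 in C#2, 0 and 2 in C#3, and 0 and 1 in C#6. MAML2, a Notch coactivator, fell there, at -0.65 in C#1, -0.95 in C#2 and -1.08 in C#3 (SE 0.12) and was -0.20 in C#6 (limma adjusted p 0.268). PGR was not called in C#6 either (-0.63, limma adjusted p 0.121). It did not differ among the clones by limma's F test (adjusted p 0.148), nor between C#3 and C#6 (limma adjusted p 0.093). A clone pattern shared by MAML2 and PGR is therefore not shown. Beside FOXA1 on chromosome 14, 1 neighbour, MIPOL1, was higher in C#1, C#2 and C#6 and 0 in C#3, with 0 lower in each. Beside GREB1 on chromosome 2, 1 was higher in C#1, 2 in C#2, 2 in C#3 and 1 in C#6, with 0 lower but for 2 in C#6. TFF1 and TFF3 are near one another on chromosome 21 with TFF2, the trefoil gene of gastric mucosa, beside them. Each was the only called higher neighbour of the other in all 4 clones, while TFF2, near background (group means 3.53 to 3.97), changed by -0.29 to 0.14 with no call. Where 11% to 14.7% of all genes were lower, 0 neighbours of ANKRD30A were higher and 2 lower in each clone. FZD8, a Wnt receptor, was one of them, with changes of -1.94, -1.83, -1.79 and -1.70 (SE 0.17, limma adjusted p at most 6.06e-06), and did not share the clone pattern of ANKRD30A.

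**Figure D4:**
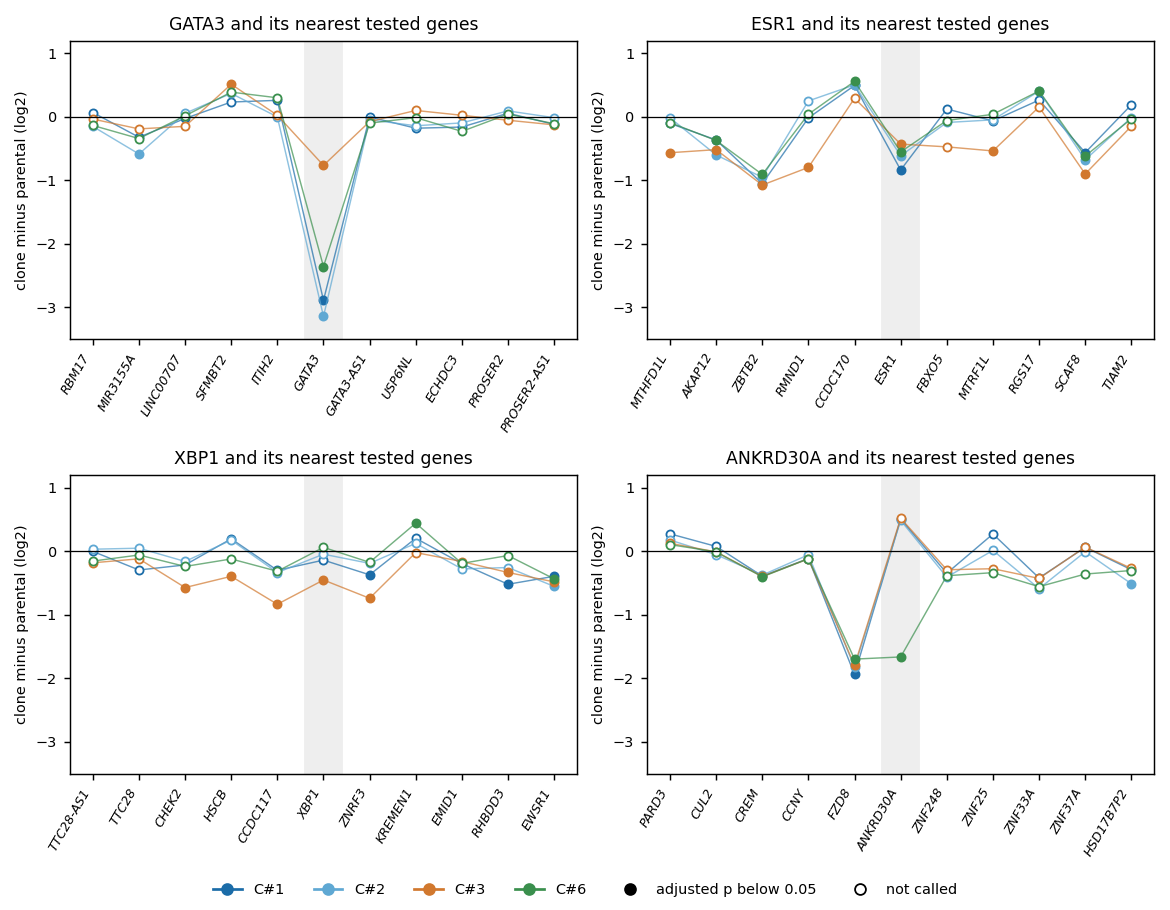
Log2 change against the parental line (vertical axis) for GATA3, ESR1, XBP1 and ANKRD30A (shaded) and the 5 tested genes on each side in chromosome order (horizontal axis, not to scale), with 1 line per clone; filled points have a limma adjusted p below 0.05. The neighbours of GATA3 stay between -0.58 and 0.51, and the C#3 line is lower than the others for most neighbours of ESR1 and XBP1, with medians of -0.53 and -0.36.

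The genes most like each widely changed member were found by the root mean square difference of the log2 changes over the 4 clones. These distances compare changes that share the same parental arrays, and are a description. The genes were chosen for these changes, so a clone pattern shared with a member follows from the choice. Calls and p-values given for them do not test that likeness. Nearest to GATA3 were NCAM2, a neural cell adhesion gene, at a distance of 0.34 (changes of -2.63, -2.59, -0.93 and -2.60 by clone number), PTCHD1 (0.47) and GPC6 (0.67). NCAM2 had its smallest change in C#3, as GATA3 did, with that call lost without parental replicate 2 or 3 or C#3 replicate 1 (-1.08 to -0.74). Nearest to PGR were PCAT6 (0.21), SUSD4 (0.22) and F8A1 (0.23), each called lower in all 4 clones. Nearest to TFF1 were FFAR2 (0.18), CPD (0.23) and PLEK2 (0.25), and nearest to TFF3 were MVP (0.17), ABHD11 (0.19) and GPX2 (0.20). Nearest to ANKRD30A were TNC (0.25), MIR21 (0.43) and ARHGAP27P2 (0.45). TNC, an extracellular matrix glycoprotein, fell in C#6 (log2 -1.49, limma adjusted p 1.38e-05) and was 0.35, 0.20 and 0.21 in C#1, C#2 and C#3, with no call.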

How the data were processed

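The values deposited by the authors are on the log2 scale, with 53617 probe sets on each of 15 arrays. The Transcriptome Analysis Console, RMA and Affymetrix Expression Console 1.4.1 are named in the submitters' processing notes, without the role of each. No build was given in the sources used here. RMA makes the arrays' distributions alike, so a shift of most genes would be largely removed. Symbols came from the platform annotation, updated through the RefSeq gene table of GRCh38.p14, used here only to name genes and to order them: 16098 probe sets had 1 symbol and 37519 had none here.

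Probe sets were kept if at least 3 arrays had them above that array's 40th percentile, and the one with the highest mean stood for a symbol. The 15 arrays entered 1 model of group means, fitted by lmFit and eBayes of limma 3.58.1 (R 4.3.3) with 10 residual degrees of freedom. Clones were compared with the parental line and in 6 pairs, and by an F test. Adjusted p-values are Benjamini-Hochberg over 12147 genes within a comparison, called below 0.05; SE and 95% intervals are limma's. The fit was tested on simulated data with independent normal errors and changes in C#1 only. There it recovered a share of 0.62 of 1.5-fold, 0.96 of 2-fold and 1 of 4-fold changes, with 0.056 of calls false. These settings are simpler than the data, where some same-numbered arrays correlated, so recovery in the data was not measured. Figures used matplotlib 3.10.9.

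Members and lists were chosen with earlier results of these data known. Named genes were the 9 members, up to 4 called genes per list by size of change, the 3 genes most like a member whose log2 change reached 1 or more, and neighbours called with such a change; others are said to be picked afterwards. The lists were oestrogen response, luminal transcription factors, luminal surface genes, receptor coregulators, GATA family, unfolded protein response, and basal, mesenchymal and stromal markers.

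Replicate numbers were not taken to pair the samples: same-numbered arrays' deviations from their group means correlated at -0.13 to 0.46 over genes, with all 3 pairs above 0.1 only for C#1 and C#6 (0.18 to 0.22). There the replicate block moved the count of called genes from 1540 to 1719 and changed no call of the 9 genes. Replicate 1 correlated above 0.1 in every pair of clones (0.14 to 0.46), and C#1 with C#2 gave 0.46, 0.09 and 0.34. A replicate effect among the clones is therefore possible. Under the block, limma's F test called 6 of the 9 genes rather than 4, and the count of called genes rose in every comparison. The alternatives were other filters, scaling, adjustment, weights, probe set means, eBayes settings, fits to 6 arrays, the block and leaving out arrays. The number of arrays limits the precision.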

Additional observations from a re-analysis of the deposited data

Results flagged for a closer look

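The same gene's change against the parental line differed between clones in 16 of 54 direct tests (9 genes, 6 pairs of clones), each a contrast in the limma fit with an adjusted p below 0.05. For GATA3, C#1 minus C#3 was -2.13, C#1 minus C#6 was -0.53, C#2 minus C#3 was -2.38, C#2 minus C#6 was -0.79 and C#3 minus C#6 was 1.59, so C#3 lay nearest to the parental level. For ANKRD30A, C#6 was the clone apart: C#1 minus C#6 was 2.17, C#2 minus C#6 was 2.15 and C#3 minus C#6 was 2.18. For TFF1, C#1 minus C#6 was -0.81, C#2 minus C#3 was 0.57 and C#3 minus C#6 was -0.92. For XBP1, C#2 minus C#3 was 0.41 and C#3 minus C#6 was -0.51. For TFF3, C#1 minus C#6 was -0.55. For GREB1, C#2 minus C#3 was 0.61 and C#2 minus C#6 was 0.63. ESR1, PGR and FOXA1 had no such difference in this fit. ESR1 in C#1 minus C#3 passed in 4 other settings and without C#1 replicate 2 or C#2 replicate 1, at -0.49 to -0.41. Without C#3 replicate 1, the highest PGR array of C#3, PGR passed in C#2 minus C#3 (0.83) and C#3 minus C#6 (-1.16). A lower C#3 level and a smaller error follow from that omission, so these passes support no call.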

How the results depend on the processing

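Of 90 values of the 9 genes (10 comparisons), 37 were called, 28 of them under every alternative run. Over 2340 recomputed values, 2236 stayed on their side of the threshold, 68 lost and 36 gained a call, and 0 called values turned sign. Among the values that stayed, 42 uncalled ones turned sign. Between C#1 and C#3, the count of called genes among the 9 was 1, and 3 with the stricter dim filter (60th percentile), 2 with renewed quantile normalization, 4 with the replicate block, 4 with trend and robust eBayes, 3 with array weights and 3 without the first arrays of C#3 and C#6, chosen after seeing their high PGR and GREB1, so that calls of these genes there support nothing. At an adjusted p below 0.01, C#1 and C#6 differed in 2 genes rather than 4, and C#2 and C#3 in 2 rather than 4. Leaving out single arrays gave 5 to 5 called genes in C#1, 4 to 5 in C#2, 4 to 6 in C#3 and 5 to 7 in C#6 against parental, 0 to 0 for C#1 with C#2, 1 to 3 for C#1 with C#3, 2 to 4 for C#1 with C#6, 2 to 5 for C#2 with C#3, 2 to 3 for C#2 with C#6, 4 to 5 for C#3 with C#6, and 3 to 6 by the F test. The XBP1 differences of C#3 from C#2 and C#6 were not called in fits to their 6 arrays (adjusted p 0.0617 and 0.0528). With array weights, PGR (-0.83) and GREB1 (-0.54) were called lower in C#6.

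The labels do not say that the replicate numbers pair the samples. The replicate block moved the count over all genes from 2092 to 2315 in C#1, 2058 to 2314 in C#2, 2090 to 2298 in C#3 and 2724 to 2895 in C#6, and from 0 to 6 between C#1 and C#2. Of 15 arrays, 9 correlated best with their own number. Under it C#1 and C#3 also differed in ESR1, XBP1 and TFF3 (adjusted p 0.0438, 0.0453 and 0.0116). The array number limits all calls, and ANKRD30A in C#6, GATA3-AS1 and TFF2 lay near background.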
